A study of Apostichopus japonicus with 3 samples.

Results

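Among the transcripts counted in the respiratory tree of the sea cucumber Apostichopus japonicus, 118 had many reads but no recorded protein match, and they are described here. They were chosen from 20991 isotigs with a read in any library as those whose protein-match field held a dash and whose uniquely assigned reads, summed over the 3 libraries, came to 1000 or more. At the same minimum, 240 isotigs had a protein match. Poly(A) RNA was sequenced from animals at the non-aestivation stage, in deep aestivation, and in arousal from it, and no genotype, strain, treatment or age is named. The stages were represented by 1 library apiece from at least 15 individuals; pooling of their RNA is not described. No test is therefore possible, each comparison sets 1 library against another, and fewer cells of a type and less RNA per cell cannot be told apart. Since summed reads chose the isotigs, their high read numbers are a description. The members just inside the minimum were isotig23876 with 1002 summed reads and isotig03224 with 1000, and the isotigs without a match just outside it were isotig09511 with 998 and isotig13376 with 996.

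Aestivation is a summer dormancy in which sea cucumbers stop feeding and lower their metabolism, and the respiratory tree is the branched, water-filled organ that takes up oxygen. An isotig is a transcript put together from overlapping reads by an assembler, and 1 gene can give several isotigs. An isotig can lack a protein match because it is a noncoding RNA, because it holds mainly untranslated sequence, because its protein is short or particular to a lineage, or because the protein databases of the time lacked relatives. The deposited tables do not tell these apart, and they hold no isotig sequence, so none is printed. None of the members carried a gene ontology term in the component, function or process columns. The same held for all 10774 isotigs without a match, whereas 162 of the 240 matched isotigs with at least 1000 reads carried one (67.5%). The members are therefore named by isotig number alone.

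The members took a growing share of the reads from stage to stage. The non-aestivation library had 18.5% of its uniquely assigned reads on them (exact 95% interval 18.5 to 18.6). The deep aestivation library had 23.8% (23.7 to 23.9) and the arousal library 27.4% (27.4 to 27.5). These and all later intervals cover counting error only, since each stage has 1 library. PCR copies are counted as separate reads, so the intervals can be too narrow even for counting error. Less abundant isotigs without a match, with at least 100 but fewer than 1000 reads, grew in share as well, at 14.3, 16.8 and 17.6%, as did all isotigs without a match, at 39.8, 47.6 and 52.01%. The 240 matched isotigs stood at 31.1, 29.1 and 25.7%. In the same order, which is kept throughout, the uniquely assigned reads of the libraries, in units of 1000000, numbered 0.941, 0.887 and 0.963. Beside this, major yolk proteins and vitellogenins, yolk and iron-binding proteins listed here as markers, summed to 24679.5, 23135 and 1160.3 RPKM over 9 isotigs. RPKM is the number of reads per 1000 bases of isotig and per 1000000 uniquely assigned reads. With the yolk protein reads left out of the totals, the members' share was 20.01, 25.6 and 27.5%, still growing from stage to stage. With them out of both terms, that of the matched isotigs was 25.7, 23.8 and 25.6%, with no stepwise fall. Both calculations were added after the values were seen.

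A few members held most of these reads. The 3 with most reads, isotig22175, isotig24195 and isotig10678, accounted for 53.6, 53.4 and 57.8% of the member reads of the 3 stages. Without them the share of all reads on the remaining 115 was 8.60, 11.1 and 11.6%. Of the 11 isotigs with at least 10000 summed reads in the whole series, 5 were members. Among the 100 isotigs with most reads, 23, 34 and 30 were members. At the other end, no member was at 0 in any library, and the lowest count was 57 reads, on isotig10156 in non-aestivation.

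**Figure D1:**
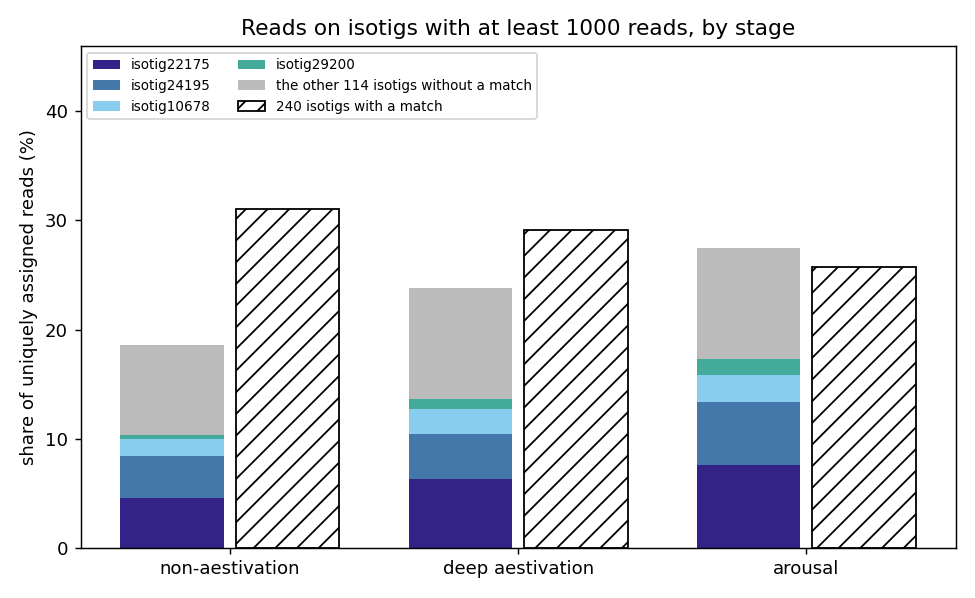
Share of uniquely assigned reads (%, from 0) by stage, with 1 library per stage. The left, stacked bars hold the 118 isotigs without a match and at least 1000 summed reads, with the 4 largest in colour, and reach 18.5, 23.8 and 27.4%; the right, hatched bars hold the 240 isotigs with a match and reach 31.1, 29.1 and 25.7%.

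Isotig22175, of 650 bases, had 42847, 56076 and 72637 reads, 4.55, 6.32 and 7.54% of each library, and stood at 70027.5, 97244 and 116043 RPKM. It was lowest in non-aestivation and highest in arousal, 1.66-fold higher (interval 1.64 to 1.68) than in non-aestivation. Isotig24195, of 546 bases, stood at 70439, 75805 and 107206 RPKM, nearly level over the first 2 stages (1.08-fold higher, 1.06 to 1.09, in deep aestivation) and then 1.41-fold higher (1.40 to 1.43) in arousal. Isotig10678, of 382 bases, stood at 40613.5, 58968.5 and 64336 RPKM, with its larger step between non-aestivation and deep aestivation (1.45-fold higher, 1.42 to 1.48). All of these steps were under 2-fold. The fourth, isotig29200, was the shortest member at 280 bases and moved most of the leading 4. Its 3512, 8407 and 13586 reads gave 13325, 33844 and 50386 RPKM, 2.54-fold higher (2.44 to 2.64) in deep aestivation and 3.78-fold higher (3.64 to 3.93) in arousal than in non-aestivation. Each of the 4 was lowest in non-aestivation and highest in arousal.

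The next members by reads stood at lower RPKM. Isotig13281 stood at 2978, 2086 and 2475 RPKM over 2415 bases and was highest in non-aestivation. Isotig14760, at 1568, 2208 and 2523 RPKM, and isotig16942, at 938, 2259.7 and 2749 RPKM, went the other way, with their lowest value in non-aestivation and their highest in arousal. Isotig08867, at 742, 858 and 753 RPKM over 2914 bases, and isotig04640, at 1059.8, 977 and 1387 RPKM, stayed within 1.5-fold. Isotig26827, of 434 bases, stood out from these with 633, 3787 and 1923 reads, or 1549, 9836 and 4601 RPKM. It was 6.35-fold higher (5.83 to 6.92) in deep aestivation than in non-aestivation and in arousal lay between the other stages. Over all members the median level was 491, 576 and 553 RPKM, from 59.1 to 70439 RPKM in non-aestivation.

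The members were longer than most isotigs without a match and about as long as abundant matched isotigs. Their median length was 1252.5 bases (quartiles 845.5 and 1697.5), against 1288 bases (689.8 and 2113) for matched isotigs of the same read minimum and 649 bases for all isotigs without a match. Longer isotigs can collect more reads at the same level, so a minimum on reads favours length. The longest member, isotig04327, had 3547 bases and 123, 92.2 and 141 RPKM, the lowest level of any member in deep aestivation and in arousal. Next in length were isotig08867, described above, and isotig13188, of 2676 bases, at 207, 156 and 232 RPKM. Of the members 7 were shorter than 500 bases, among them isotig29200, isotig10678 and isotig27501 of 404 bases, which stood at 1441, 946 and 1375 RPKM. Below 3000 bases lay 117 of 118 members and 221 of 240 matched isotigs.

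Reads covered nearly the whole length of most members. Coverage is the percentage of an isotig's bases that lie under uniquely assigned reads, and it stayed below 100% at any depth. Taking each isotig's highest coverage among the 3 libraries, the median was 96.7% for the members and 96.8% for matched isotigs of the same minimum. Under 90% in every library lay 27 of 118 members (22.9%) and 51 of 240 matched isotigs (21.3%), shares that are close. The best covered member, isotig15224, reached 99.8, 99.4 and 99.9% over 1358 bases. Isotig15958, at 99.9, 93.2 and 91.8%, and isotig18772, at 99.2, 99.9 and 98.4%, followed.

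The thinly covered members fell mostly into 1 part of the assembly's numbering. From isotig13070 upward the isotigs were numbered in order of falling length (Spearman's rho of number and length -0.9998 across 14514 isotigs), with a jump from 181 bases at isotig13069 to 6323 bases at isotig13070. Below it the order was looser (rho -0.46 across 6477 isotigs). These coefficients describe the numbering, across isotigs that are not replicates. Of the 25 members numbered below the jump, 22 stayed under 90% coverage, and of the 93 from it upward, 5. Matched isotigs were split alike, 42 of 53 and 9 of 187, so the split is not shown to be particular to isotigs without a match. Median highest coverage was 63.4% and 97.8% for members below and above the jump. This division was chosen after the values were seen.

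**Figure D2:**
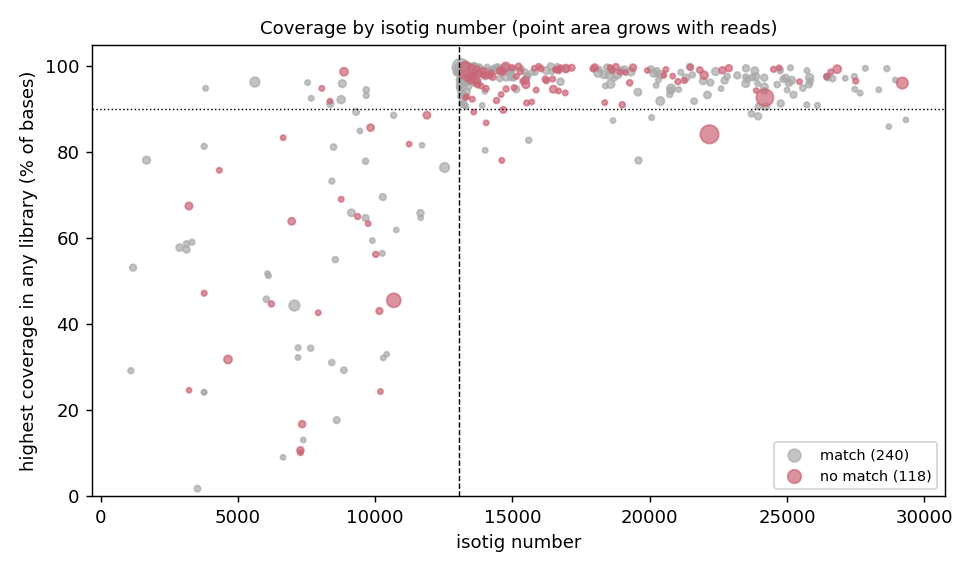
Highest coverage in any library (% of the isotig's bases) against isotig number for the 358 isotigs with at least 1000 summed reads; point area grows with summed reads, the dashed line marks isotig13070 and the dotted line 90% coverage. Points left of the dashed line spread from under 20% to over 90%, with and without a match, and all but 2 of the 280 points right of it lie at 80% or above.

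In several members very many reads lay on only part of the isotig's bases. All isotigs with 1 read had 49 covered bases, so a read spans 49 bases and the mean depth on covered bases can be computed. Isotig10678 had 174 of its 382 bases covered in each library, 45.55%, at a mean depth of 4113, 5628 and 6665 reads. Depth differed between stages while the number of covered bases did not; which bases these were is not in the tables. Isotig22175 had mean depths of 4676, 5023 and 6753 and coverage of 69.1, 84.2 and 81.1%, so that 449, 547 and 527 of its 650 bases were covered. Isotig04640 was covered to 31.7, 31.6 and 31.8% and isotig07342 to 16.8, 16.7 and 16.7%, at mean depths of 154, 134 and 206 and of 228, 151 and 167. RPKM divides by the whole length, so it understates the read density on the covered part of such isotigs. Coverage changed by less between libraries in most members than in isotig22175. Its range over the 3 libraries had a median of 3.31 percentage points among the 27 members under 90% and 2.27 among the other 91. The range was within 5 points in 17 of the 27 and 67 of the 91, and it reached 23.3 and 20.9 points. Reads that align in more than 1 place were not counted; their part in these gaps was not tested.

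Isotig07280 and isotig07281, with consecutive numbers and lengths of 1994 and 1982 bases, had the lowest coverage of all members. They were covered to 10.7, 8.32 and 8.27% and to 10.1, 10.1 and 9.94%. Their stages stood in opposite order. Isotig07280 stood at 709, 404 and 699 RPKM and was lowest in deep aestivation, 1.75-fold lower (1.60 to 1.92) than in non-aestivation. Isotig07281 stood at 107, 371 and 252 RPKM and was highest in deep aestivation, 3.48-fold higher (2.96 to 4.10). Whether they come from 1 gene is not recorded in the tables. No other members had consecutive numbers.

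The first comparison asked which members differ in deep aestivation from non-aestivation. The call required a difference of 1 or more in log2(RPKM + 0.5), that is 2-fold, in either direction. Of the 118 members, 29 were higher (24.6%) and 6 lower (5.08%). Reads of the higher stage also count toward the minimum of 1000 summed reads, so these counts are a description. Among all 10896 isotigs with at least 20 summed reads, 13.1% were higher and 18.6% lower. The median log2 ratio was 0.34 over the members and -0.12 over all compared isotigs. Matched isotigs with at least 1000 reads had 16 higher and 25 lower of 240 (median -0.25), and less abundant isotigs without a match, with at least 100 but fewer than 1000 reads, had 347 higher and 134 lower of 1727 (median 0.34). The members therefore had about the same median as less abundant isotigs without a match. TMM scaling moved the median of all compared isotigs by 0.11, and relative to that median the members lay 0.46 higher with either scaling; the split of all calls went from 41.3% higher to 48.7%, or to 54.4% when scaled to matched isotigs, and that of the members from 82.9% to at most 85.7%.

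The largest rise was that of isotig10156, a member of 952 bases. It had 57, 2515 and 221 reads, or 63.6, 2978 and 241 RPKM, and was 46.8-fold higher (36.01 to 61.99) in deep aestivation. The deep aestivation library stood alone here, with the other libraries both under 250 RPKM. Isotig10156 was covered to 38.7, 43.1 and 39.2%, so its reads lay on 368, 410 and 373 bases in the 3 stages. Isotig14639, of 1508 bases, had 106, 1802 and 1404 reads and 74.7, 1347 and 967 RPKM, 18.04-fold higher (14.8 to 22.2). It was low in non-aestivation and high in both later stages, over nearly its whole length (87.5, 98.7 and 96.02% coverage). Isotig26827, already described, came next, and isotig06650 followed at 147, 857 and 220.1 RPKM, 5.82-fold higher (4.87 to 7.01). Like isotig10156, isotig06650 was high in deep aestivation and far lower in both other stages. The remaining 4 of the 8 largest rises were isotig08764 (5.42-fold higher, 4.21 to 7.07), isotig13592 (5.11-fold higher, 4.16 to 6.34), isotig10023 (4.48-fold higher, 3.80 to 5.31) and isotig14613 (4.16-fold higher, 3.52 to 4.94). Without the deep aestivation reads, isotig10156, isotig06650, isotig08764, isotig13592, isotig10023 and isotig14613 would not have reached the minimum, while isotig14639 and isotig26827 would. Of these 8, isotig10156, isotig06650, isotig08764 and isotig10023 were numbered below isotig13070 and covered to under 90%. In all, 9 of 25 members below that number were higher (36%), and 20 of 93 from it upward (21.5%). Matched isotigs gave 7 of 53 and 9 of 187.

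The 6 members that fell were isotig10193, isotig16564, isotig16201, isotig16238, isotig06962 and isotig09363. Isotig10193, of 1027 bases, had 513, 128 and 477 reads, or 531, 140.5 and 482 RPKM, and was 3.78-fold lower (3.11 to 4.62) in deep aestivation. Isotig16564 stood at 549, 183 and 300.3 RPKM (3.01-fold lower, 2.54 to 3.57) and isotig16201 at 829, 301 and 886 RPKM (2.76-fold lower, 2.42 to 3.14). In isotig10193 and isotig16201 the low value belonged to deep aestivation, with non-aestivation and arousal close together, while isotig16564 reached an intermediate level in arousal. Isotig16238 went down at each step, at 748, 300.3 and 166 RPKM. Isotig06962 stood at 852, 345 and 1465 RPKM and isotig09363 at 499, 207 and 248 RPKM, lowest in deep aestivation in both. Just inside the 2-fold line, isotig09745 and isotig18558 were 1.97-fold lower (1.71 to 2.29) and 1.87-fold lower (1.62 to 2.17). Of these 6, isotig10193, isotig06962 and isotig09363 were numbered below isotig13070 and covered to under 70%, so that 3 of 93 members from that number upward were lower.

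**Figure D3:**
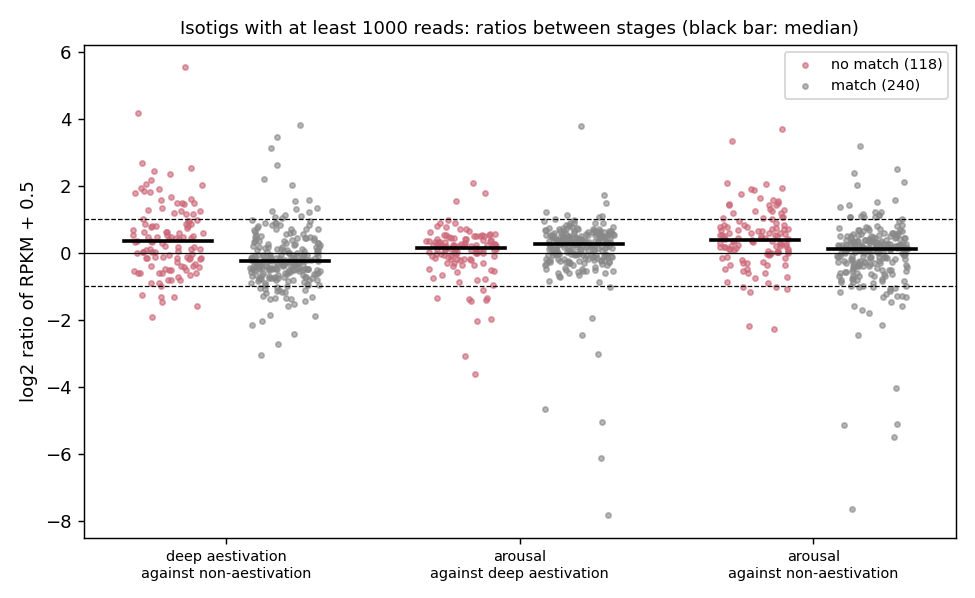
Log2 ratio of RPKM + 0.5 between stages for the 118 isotigs without a match and the 240 with a match, each point 1 isotig; black bars are medians and dashed lines mark 2-fold. The medians without a match are 0.34, 0.16 and 0.40, and those with a match -0.25, 0.27 and 0.11.

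Between deep aestivation and arousal the members differed less. In arousal 3 of 118 were higher (2.54%, against 8.06% of all compared isotigs) and 10 lower (8.47%, against 8.93%). Here too, reads of the higher stage count toward the read minimum, so these counts are a description. Among isotigs with at least 100 reads, 4.36% were higher and 4.51% lower, so the background depends on the read minimum. Matched isotigs with at least 1000 reads had 7 of 240 higher (2.92%) and 8 lower (3.33%). Isotigs without a match and with at least 100 but fewer than 1000 reads had 85 of 1727 higher (4.92%) and 60 lower (3.47%). The share of higher members was near that of the matched isotigs, and the share of lower members was above those of both these sets and near that of all compared isotigs; the differences were not tested. The median log2 ratio was 0.16 over the members, 0.00 over all compared isotigs and 0.27 over matched isotigs with at least 1000 reads. Scaled to matched isotigs only, 6 members were higher and 9 lower, and 40% of the member calls were higher in place of 23.1%, and 59.5% of all calls in place of 47.4%.

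Isotig10156 had the largest fall from deep aestivation to arousal, 12.4-fold lower (10.8 to 14.2). Next came isotig20588, at 341, 1266 and 151 RPKM and 8.37-fold lower (6.85 to 10.3) in arousal, and isotig21480, at 621, 1744 and 426 RPKM and 4.10-fold lower (3.59 to 4.69). Both were highest in deep aestivation, and in both the arousal library lay below the non-aestivation library as well. Isotig18772, at 544, 1282 and 485 RPKM, had the same shape on a smaller scale (2.64-fold lower, 2.35 to 2.97). Isotig16491 differed, since it stood at 2308, 1307 and 484 RPKM and was lower at each step. Isotig06650, isotig14613 and isotig15958 completed the 8 largest falls, at 3.89-fold lower (3.35 to 4.54), 2.60-fold lower (2.26 to 2.99) and 2.54-fold lower (2.20 to 2.93). The 3 members that rose were isotig06962 (4.25-fold higher, 3.85 to 4.69), isotig10193 (3.43-fold higher, 2.82 to 4.21) and isotig16201 (2.95-fold higher, 2.59 to 3.35). All 3 were among the members lowest in deep aestivation, and the deep aestivation library enters both comparisons. Isotig06962 and isotig10193 were covered to under 70%; without the members under 80% coverage 1 member of 99 was higher. Isotig19909, at 459, 305 and 607 RPKM, isotig08764, isotig15375, isotig07280 and isotig21981, at 3309.8, 2083 and 3559.6 RPKM, followed within 2-fold.

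**Figure D4:**
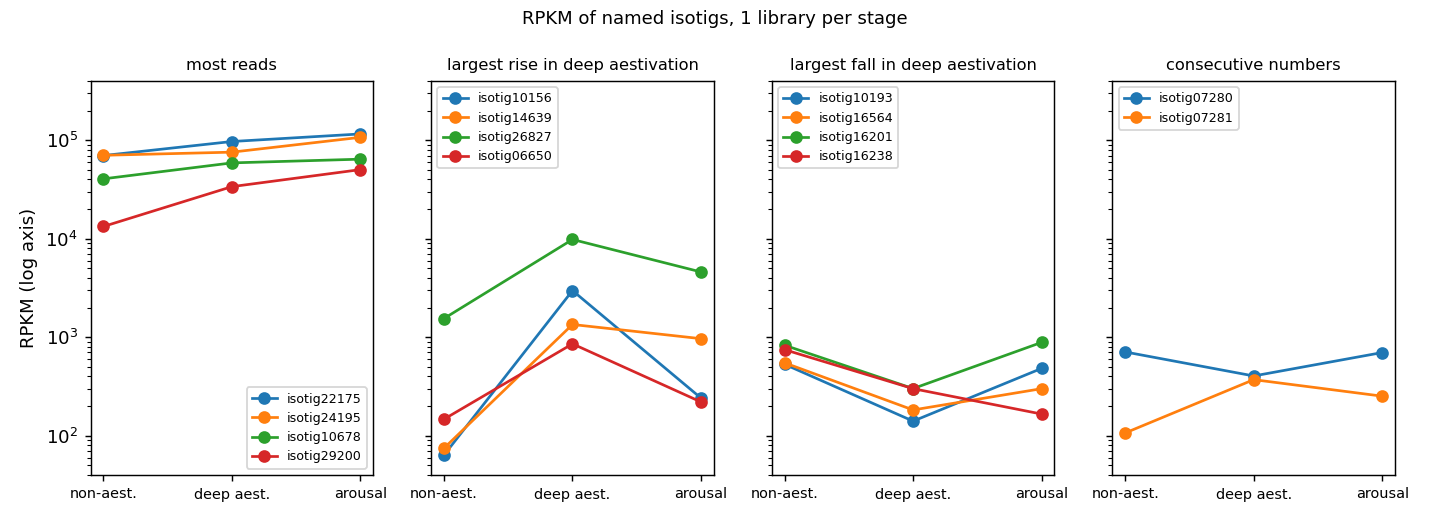
RPKM on a log axis by stage, with 1 library per stage and 1 line per isotig, for the 4 isotigs with most reads, the 4 largest rises and the 4 largest falls in deep aestivation, and the pair with consecutive numbers. The leading 4 are lowest in non-aestivation, isotig10156 peaks at 2978 RPKM in deep aestivation, and isotig07280 and isotig07281 run in opposite directions.

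Between non-aestivation and arousal, 27 of 118 members were higher in arousal (22.9%, against 12.5% of all compared isotigs) and 6 lower (5.08%, against 18.8%). The limit from the read minimum applies here too, so these counts are a description. The median log2 ratio was 0.40 over the members, -0.13 over all compared isotigs and 0.11 over matched isotigs with at least 1000 reads. Of these matched isotigs 20 were higher and 24 lower, and of the 1727 isotigs without a match and with at least 100 but fewer than 1000 reads 20.8% were higher and 6.08% lower. The number of lower members depended on the scaling, at 3 with TMM factors, with median-of-ratios factors or without the leading 3 members in the totals, and 2 when scaled to matched isotigs, where 41 were higher and 62.8% of all calls were higher in place of 39.95%. This comparison shares a library with each of the other 2 and is not independent of them.

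Isotig14639 had the largest rise from non-aestivation to arousal, 12.9-fold higher (10.6 to 15.9), and isotig08764 the next, at 115, 626 and 1171 RPKM and 10.1-fold higher (7.97 to 13.1). Isotig08764 was higher at each step, the second of them under 2-fold. Isotig10023 stood at 148, 664 and 628 RPKM (4.24-fold higher, 3.59 to 5.02) and isotig13592 at 59.1, 302 and 247 RPKM (4.18-fold higher, 3.39 to 5.19), both with their later stages close together. Isotig18999, at 307, 909 and 1122 RPKM, and isotig15375, at 163, 298 and 547 RPKM, were highest in arousal, 3.65-fold higher (3.17 to 4.22) and 3.37-fold higher (2.87 to 3.95). Isotig10156 was still 3.79-fold higher (2.82 to 5.16) than in non-aestivation.

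Isotig16491 had the largest fall, 4.77-fold lower (4.34 to 5.25) in arousal than in non-aestivation, followed by isotig16238 at 4.51-fold lower (3.84 to 5.31) and isotig20588 at 2.25-fold lower (1.79 to 2.85). In isotig16238 coverage went down too, from 96.6% with 824 reads to 75.7% with 187 reads. Isotig15513, at 513, 314 and 244 RPKM, isotig09745, at 384, 195 and 190.5 RPKM, and isotig09363 lay just past 2-fold, at 2.11-fold lower (1.83 to 2.42), 2.02-fold lower (1.75 to 2.33) and 2.01-fold lower (1.78 to 2.27), and these were the 3 calls lost with TMM or median-of-ratios factors. Isotig06223, at 521, 342 and 279 RPKM, and isotig16564 lay just inside the line.

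By highest RPKM, the non-aestivation library was the peak of 25 members, the deep aestivation library of 35 and the arousal library of 58. Of the 240 matched isotigs with at least 1000 reads, 93, 38 and 109 did so. Deep aestivation was the peak of 29.7% of the members, 15.8% of these matched isotigs, 34.2% of isotigs without a match and with at least 100 but fewer than 1000 reads, and 28.4% of all compared isotigs, so that the members were near the share of all. Arousal was the peak of 49.2%, 45.4%, 41.3% and 26.9% of the same sets. Non-aestivation was the lowest stage for 68 members, deep aestivation for 37 and arousal for 13. Among the 240 matched isotigs these counts were 66, 123 and 51, and among all 10896 compared isotigs 3630, 3653 and 3613. Among the 1727 less abundant isotigs without a match they were 1004, 430 and 293. Non-aestivation was thus most often the lowest stage there too. The most frequent order, from non-aestivation through deep aestivation up to arousal, held for 39 members, and the reverse order for 7. Orders were not counted in the other sets. Most peaks were shallow, since 8 members stood at least 2-fold above both other stages in deep aestivation, 2 in non-aestivation and 0 in arousal. The 8 were isotig10156, isotig26827, isotig20588, isotig21480, isotig18772, isotig06650 and isotig14613, described above, and isotig16648, at 483, 1456 and 578 RPKM, which is named after its values were seen. The 2 were isotig16238 and isotig09363. Peaks at this margin were not counted in the other sets. Reads of the peak stage also count toward the minimum of 1000. Without the deep aestivation reads, isotig10156, isotig20588, isotig21480, isotig18772, isotig06650 and isotig14613 would not have reached it, while isotig26827 and isotig16648 would. Neither isotig16238 nor isotig09363 would have reached it without the non-aestivation reads. These peak counts are therefore a description. Scaled to matched isotigs, 14 members peaked in non-aestivation.

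**Figure D5:**
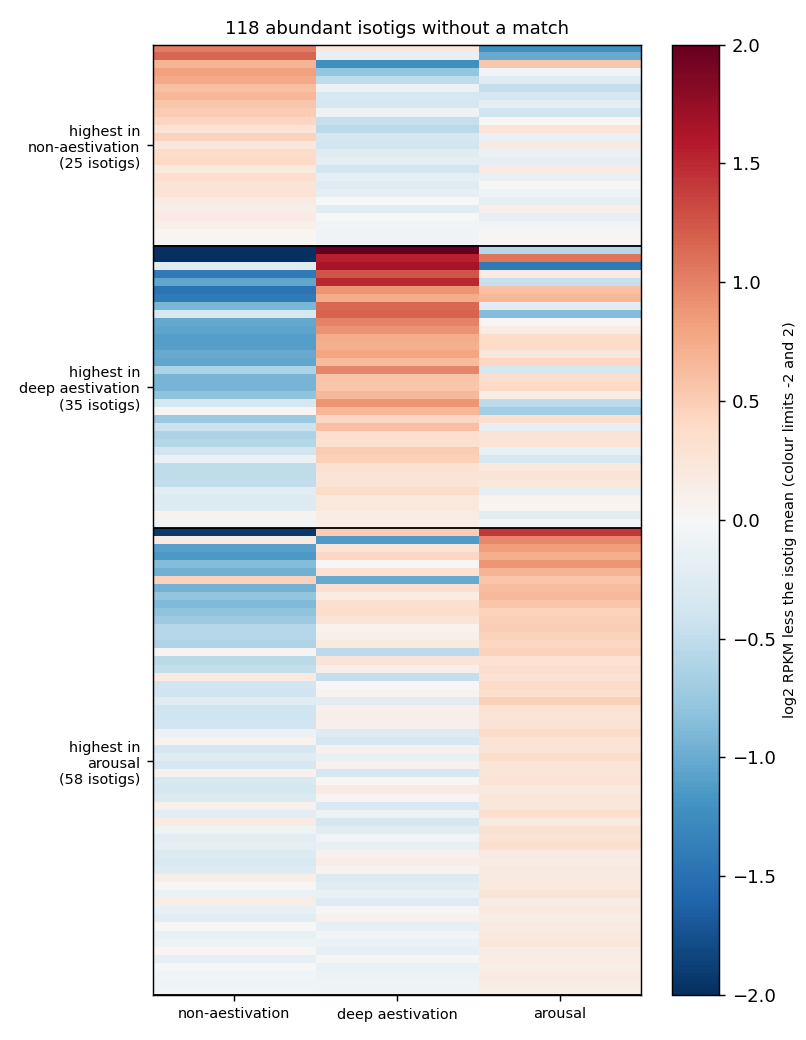
Log2 RPKM of all 118 members less each isotig's mean over the 3 libraries, 1 row per isotig and 1 column per stage, grouped by the stage with the highest value and ordered in each group by the spread between stages; the colour ends at -2 and 2. Of the 7 isotigs with a spread of 5-fold or more, 6 were highest in deep aestivation. Reads of the highest stage also count toward the read minimum, so this count is a description. Without the deep aestivation reads, isotig10156, isotig20588, isotig06650 and isotig13592 would not have reached the minimum, while isotig14639 and isotig26827 would. The same count was not made in the other sets.

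The highest stage exceeded the lowest by a median of 1.71-fold over the members and 1.55-fold over the matched isotigs. It was under 1.5-fold in 44 of 118 members and in 107 of 240 matched isotigs. In the members it was at least 2-fold in 45, at least 5-fold in 7 and at least 10-fold in 3. The matched isotigs were not counted at these larger spreads. The steadiest members were isotig13509, at 556, 514 and 550.4 RPKM, isotig21264, at 719, 662 and 711 RPKM, and isotig21825, at 1193, 1069.9 and 1073 RPKM. In isotig13509 the stages lay within 1.08-fold of each other.

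Matched isotigs with at least 1000 reads were ranked by how near their profile over the 3 libraries lay to that of each leading member, as the Euclidean distance between mean-centred log2(RPKM + 0.5). The nearest to isotig22175 was a match to ribosomal protein S3 of the small ribosomal subunit (isotig18575, 1803, 2615 and 3145 RPKM, distance 0.06), then a match to an alpha-N-acetylgalactosaminidase, a lysosomal glycosidase (isotig13384, distance 0.06), and a hypothetical protein (isotig24171, 0.11). Nearest to isotig24195 was a match to ribosomal protein L29 of the large subunit (isotig26477, 1797, 1865 and 2711 RPKM, distance 0.04), followed by isotig14727, a predicted protein (0.08), and isotig22399, a match to ribosomal protein L13a (0.10). Nearest to isotig10678 were a match to ribosomal protein S16 (isotig22101, 1592, 2389.7 and 2549 RPKM, distance 0.03), a hypothetical protein (isotig13995, 0.07) and isotig18575 again (0.11). The likeness rests on 3 libraries. How many of the 240 candidate isotigs matched ribosomal proteins was not counted, and a link of the members to ribosomal proteins was not tested. The levels of the leading members were far above those of all these nearest isotigs.

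Markers of germ cells, muscle, cilia and yolk proteins, found by protein name, also differed between the libraries. Germ cell markers summed to 862, 611 and 453 RPKM over 26 isotigs, of which 1, 7 and 9 were at 0. Most of their reads were on zonadhesin, at 750, 563 and 474. Bindin had 100, 27 and 23 reads, synaptonemal 47, 0 and 1, spermatogenesis 77, 77 and 66, and sperm flagellar 12, 0 and 0. The defining names vasa, piwi, nanos and boule matched no isotig. Muscle markers summed to 1911, 1925 and 1587 RPKM over 43 isotigs, with 2, 4 and 7 at 0, but the names within the list went different ways. Myosin heavy chain had 1360, 494 and 561 reads, titin 1293, 1545 and 1142, and calponin 426, 494 and 504. Tropomyosin had 185, 174 and 225, troponin 65, 61 and 86, and twitchin 243, 183 and 144. Markers of cilia summed to 135, 122 and 82.9 RPKM over 16, with 1, 1 and 4 at 0, on few reads. Tektin had 53, 58 and 49 reads and radial spoke 30, 30 and 21. Axonemal dynein had 20, 18 and 11, axonemal dynein heavy chain 35, 18 and 9, and intraflagellar transport 25, 16 and 15. Of the yolk protein isotigs 0, 1 and 2 were at 0. Which of these markers came from the respiratory tree itself is not recorded. The part of cell or tissue composition in the members' values was not tested, and no marker list for the respiratory tree as a whole was used.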

How the data were processed

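Per the labels' protocols, poly(A) RNA of respiratory trees was fragmented and primed with random hexamers; keeping of strand is not stated. The submitters' processing notes name CASAVA 1.5, and the aligner was not given in the sources used here. The authors deposited, per the file headers and the description deposited with them, for each isotig of a published reference transcriptome, the count of uniquely assigned reads, the length, the coverage as a percent of its bases, gene ontology terms, and RPKM. Counts summed to the header totals and RPKM recomputed from them matched within a relative tolerance of 1e-09. Isotigs that a table did not list were given 0 reads.

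Calls were at a log2 difference of 1 in RPKM + 0.5, over isotigs with at least 20 summed reads, with no p-value. Ratios have exact conditional binomial 95% intervals. The rule was tested on simulated data. Members and lists were chosen with earlier results of these data known. Named members were the 10 with most reads, the 8 largest rises and falls per comparison, extremes of length, coverage and spread, the edges of the minimum, and the 3 profiles nearest to each of the leading 3. Pseudocounts, filters, minimums, call rules and scalings (edgeR 4.0.16, DESeq2 1.42.0) were varied. Python 3.11.15, numpy 2.4.6, pandas 2.3.3, scipy 1.17.1 and R 4.3.3 were used. The RefSeq gene table has no isotig names and was left out.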

Additional observations from a re-analysis of the deposited data

How the results depend on the processing

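Each median ratio of the members kept its sign under every alternative run. For deep aestivation against non-aestivation it was 0.45 with TMM, 0.46 with median-of-ratios factors, 0.54 scaled to matched isotigs and 0.11 at a minimum of 2000 reads. For arousal against non-aestivation it was 0.51, 0.52 and 0.72 with these scalings, and for arousal against deep aestivation 0.28 scaled to matched isotigs. Calling at 1.5-fold gave 38.1% of members higher and 16.1% lower in deep aestivation against non-aestivation, 10.2% and 13.6% in arousal against deep aestivation, and 38.1% and 10.2% in arousal against non-aestivation. Shares of all isotigs at 1.5-fold, or at minimums of 500 and 2000 reads, were not computed, so these shares of members have no background beside them. For arousal against non-aestivation 2.54% were lower with TMM, median-of-ratios factors or totals without the leading 3, 2.27% at a minimum of 2000 reads, and 1.69% lower and 34.7% higher scaled to matched isotigs. Of all 10896 compared isotigs, 1743, 1736 and 1811 were lower with the first 3 of these settings. Scaled to matched isotigs, 1318 were lower and 2228 higher. For arousal against deep aestivation 5.08% were higher scaled to matched isotigs and 4.55% at 2000 reads, and 4.70% lower at 500. Scaled to matched isotigs, 1113 of all 10896 compared isotigs were higher in this comparison. Chosen after seeing the data, leaving out members under 80% coverage gave 3.03% lower in deep aestivation against non-aestivation and 1.01% higher in arousal against deep aestivation, and members from isotig13070 upward gave 3.23% and 1.08%. The share of reads was 9.55, 12.7 and 13.8% without the leading 3 in either term, 22.6, 28.4 and 32.2% and 15.5, 19.9 and 23.7% at minimums of 500 and 2000, and 15.7, 20.1 and 23.4% without members under 80% coverage, and 20.01, 25.6 and 27.5% with yolk proteins out of the totals, growing from stage to stage in each case. Peaks at least 2-fold above both other stages numbered 2, 8 and 0, with the limit from the read minimum stated above. With scaling to matched isotigs, 14 members peaked in non-aestivation. Of all isotigs, 15.99% and 16.95% were higher and lower in arousal against deep aestivation without a filter, 4.36% and 4.51% with at least 100 reads, and 12.5% lower with at least 100 reads in arousal against non-aestivation. Of 144 log2 ratios of named members, 3 fell back inside 2-fold with TMM and 3 with median-of-ratios factors, 5 did so and 8 passed 2-fold when scaled to matched isotigs, and none past 2-fold changed sign. No paired analysis was possible because each stage has 1 library, which also leaves no replicate to leave out.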

Other observations

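Isotigs without a match were less frequent among abundant isotigs. They made up 56.99% of isotigs with fewer than 10 summed reads, 49.1% from 10 to under 100, 48.4% from 100 to under 1000 and 32.6% from 1000 to under 10000, and 5 of the 11 with more. By length, the share without a match among isotigs with at least 20 reads went down from 72.9% under 500 bases through 56.97%, 39.8% and 26.1% in steps of 500 bases to 13.2% at 2000 bases or more. Among isotigs with at least 1000 reads the order was different, at 25% under 500 bases, 30.1%, 49.3% and 44.6% in the same steps, and 16.9% at 2000 bases or more, so that members were most frequent between 1000 and 2000 bases. The shortest of these classes held 28 isotigs and the longest 83.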
